A study of Mus musculus with 6 samples.

Results

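The respiratory chain genes are the nuclear genes for subunits of complexes I to V, for cytochrome c and for a few assembly factors named like subunits. They were chosen by symbol from the deposited table: every symbol that begins with Nduf, Uqcr, Atp5 or Cox4 to Cox8, with Sdha, Sdhb, Sdhc, Sdhd, Cyc1 and Cycs added and pseudogenes left out. The rule gave 94 of the 23420 mouse gene symbols, and used no measured value. Of these 94 genes, 36 belong to complex I, 4 to complex II, 9 to complex III, 1 is the electron carrier cytochrome c, 20 belong to complex IV, 15 to complex V, and 9 are assembly or accessory factors. Ndufa4 and its relative Ndufa4l2 were counted under complex IV, where the Ndufa4 protein is found.

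The cells were eEnd2, an endothelial line derived from mouse embryos, stably transfected with human Integrin-β1A that carries GFP in its extracellular part. Cells of 1 group expressed the wildtype chimera (β1-WT-GFP, here β1-WT), and cells of the other expressed the same chimera with glutamine in place of a lysine of the cytoplasmic tail (β1-K794Q-GFP, here β1-K794Q), a change used to mimic acetylation. Both chimeras were driven by a short human β-actin promoter, both groups kept their own mouse Itgb1, received no treatment and were sorted for GFP, but the labels leave unnamed from which sorted population (low or high GFP) a given culture was grown. Total RNA depleted of ribosomal RNA was sequenced from 3 cultures (A, B and C) of each group. The comparison asks whether transcript levels, here those of the respiratory chain, differ between cells with the acetylation-mimetic and the wildtype chimera. Nothing in the labels says that the cultures are separately derived, so p values measure the spread between these cultures, which may be technical. The methods of the study name cultures of the sorted cells, but no independent transfections. A difference between the chimeras therefore cannot be told apart from one between the transfected and sorted populations. Because the table counts reads on mouse symbols, the human chimera itself was not measured here, and the labels could not be checked against it.

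Complex I takes electrons from NADH and complex II takes them from succinate, complex III passes them on from ubiquinol to cytochrome c, and complex IV hands them to oxygen. Complexes I, III and IV pump protons out of the mitochondrial matrix, and complex V, the ATP synthase, makes ATP as the protons return. Endothelial cells are known to draw much of their ATP from glycolysis and to use respiration largely for biosynthesis and redox balance. The core catalytic subunits of several complexes are encoded in mitochondrial DNA. None of the 26 mitochondrial DNA genes looked for was in the deposited table (0 symbols), so only the nuclear part of the chain is described.

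The totals of the 6 cultures ran from 9589826 to 15287191 counts, and a gene without reads could still have up to 3 counts, which equals 0.209 to 0.3 CPM (counts scaled to a common library total after TMM normalization). These limits cover counting error only. All 8 endothelial markers were above the filter on low counts, with a summed level of 6080 to 11600 CPM in β1-K794Q cultures and 7040 to 8070 CPM in β1-WT cultures. Of 8 mesenchymal markers 2 were at 0 in all cultures, and their sum was 2.84 to 3.75 CPM in β1-K794Q and 0.612 to 27.6 CPM in β1-WT cultures, and of 5 leukocyte markers 2 were at 0 (sums of 31.1 to 103 and 37.5 to 88.6 CPM). Cultures within a group differed unequally. Culture C of β1-WT had 2883 and 2728 genes at least 2-fold apart from cultures A and B, against 148 between A and B, and among β1-K794Q cultures B stood farther from A and C (2126 and 2707 genes) than they did from each other (1021). For some of the genes below, values are also given without these cultures. In RNA of whole cultures, fewer cells of a kind and less RNA per cell cannot be told apart.

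Most respiratory chain genes differed little between the groups, and the 7 that passed an unadjusted p of 0.05 lay among genes whose median difference had the same sign. The stricter call needed a change of 2-fold or more together with an unadjusted p of 0.05 or less in edgeR's quasi-likelihood test. These thresholds were taken from the methods of the study. Of the 94 genes, 84 passed the filter on low counts and were tested. Only Uqcr10 and Uqcr11, both small subunits of complex III, passed both thresholds (2 of 84 or 2.38%, beside 5.19% of all 11608 tested genes), and both were higher in β1-K794Q cells. Among all tested genes, 3.48% passed both thresholds with a higher and 1.71% with a lower level. At an unadjusted p of at most 0.05 and any fold, 7 of 84 genes (8.33%) passed, against 10.2% of all tested genes, and these 7 are the called genes below. Those higher were Uqcr10, Uqcr11, Ndufa12 and Atp5d (4.76% of members against 6.08% of all genes), and those lower, Ndufa10 and Sdhc among them, made up 3.57% of members against 4.08%. Adjusted over all genes, 0 of the 84 genes and 21 of all genes were at or under 0.05, and the lowest adjusted p of a member was 0.0955. The other tests of the same counts called more at that adjusted p: DESeq2 3 members (Uqcr10, Uqcr11 and Ndufa10) and 477 genes in all, and edgeR's likelihood ratio test 2 members (Uqcr10 and Uqcr11) and 318 genes in all.

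The differences of the other genes were small. The median log2 fold change (β1-K794Q against β1-WT) of the 84 genes was -0.03, beside -0.02 for all tested genes, with 39 genes above and 45 below 0. The log2 fold change was under 0.25 in size for 75% of the members and for 48.9% of all tested genes. The 95% interval of the log2 fold change lay within -1 and 1 for 72 of the 84 genes (85.7%), and for 48.0% of all tested genes, so for most members a 2-fold change in either direction lay outside the interval. The spread within groups was narrower too, with a median SD of 0.20 on the log2 scale against 0.35 over all genes. The 3 values of a group did not overlap with those of the other for 13 members (15.5%, 4 higher and 9 lower), beside 16.6% of all tested genes. With 3 cultures against 3, the smallest p of an exact two-sided permutation test on a single gene is 0.1, which every such gene reached.

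**Figure D1:**
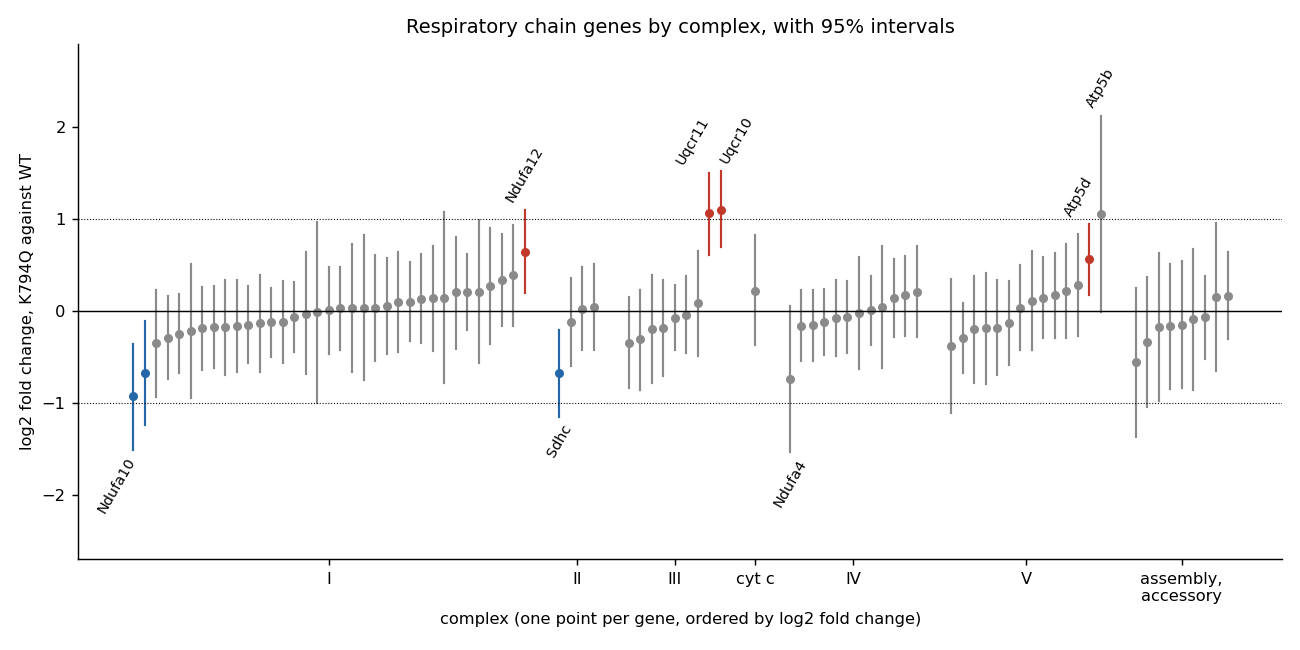
Log2 fold change of the 84 tested genes with 95% intervals (vertical lines), grouped by complex and ordered within it; red and blue mark genes at an unadjusted p of at most 0.05, and dotted lines mark a 2-fold change. Most points lie close to 0, and the 7 coloured genes are spread over complexes I, II, III and V.

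Promoter sequences are shown for 4 of the 5 members with the highest log2 fold changes (all but Ndufa12), since 2 of them share a motif and 3 lie on chromosome 10. They are the 250 bases before the gene's start in RefSeq (GRCm38.p6), read 5′ to 3′ on the gene's strand. GENCODE M21, used for gene positions below, starts Atp5d earlier (chr10:80138632-80145818), so the Atp5d window lies inside the gene as placed there. Uqcr10 is on the minus strand (chr11:4704345-4704594), Uqcr11 on the minus strand (chr10:80406822-80407071), Atp5d on the plus strand (chr10:80142025-80142274) and Atp5b on the plus strand (chr10:128083057-128083306). Capitals mark letters of 6 motifs of factors known to act at mitochondrial or housekeeping promoters, searched on both strands: GCATGCGC (NRF1), CCGGAAG (ETS), AAGGTCA (ERR), AAGATGGC (YY1), CCAAT (the CCAAT box) and ACTACAAT (ZNF143).
Uqcr10: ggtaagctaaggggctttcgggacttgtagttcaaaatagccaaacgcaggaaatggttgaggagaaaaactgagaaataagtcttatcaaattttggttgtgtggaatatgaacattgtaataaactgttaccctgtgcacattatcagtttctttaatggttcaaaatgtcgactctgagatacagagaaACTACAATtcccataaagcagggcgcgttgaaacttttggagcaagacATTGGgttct
Uqcr11: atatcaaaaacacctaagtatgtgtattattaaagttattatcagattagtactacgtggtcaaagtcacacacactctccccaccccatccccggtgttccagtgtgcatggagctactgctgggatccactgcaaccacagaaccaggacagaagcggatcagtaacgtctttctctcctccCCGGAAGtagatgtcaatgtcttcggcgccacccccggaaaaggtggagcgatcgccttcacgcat
Atp5d: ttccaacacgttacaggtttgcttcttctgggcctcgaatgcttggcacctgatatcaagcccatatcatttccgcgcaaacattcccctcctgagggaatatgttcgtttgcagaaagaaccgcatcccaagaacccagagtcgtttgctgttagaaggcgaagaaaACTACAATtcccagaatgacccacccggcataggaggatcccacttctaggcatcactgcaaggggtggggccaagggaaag
Atp5b: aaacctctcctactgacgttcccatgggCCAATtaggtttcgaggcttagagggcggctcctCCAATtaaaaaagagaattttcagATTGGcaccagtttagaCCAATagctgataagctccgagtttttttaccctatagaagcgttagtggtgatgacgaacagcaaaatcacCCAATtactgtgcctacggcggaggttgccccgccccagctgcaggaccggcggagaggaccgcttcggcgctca
The promoters of Uqcr10 and Atp5d hold ACTACAAT, that of Uqcr10 also holds a CCAAT box on the other strand, that of Uqcr11 holds CCGGAAG, and that of Atp5b holds the CCAAT box 5 times, once on the other strand. ACTACAAT was present in 3 of the 74 member promoters with a sequence (4.05%) and in 0.707% of 27025 promoters of the same length. CCAAT was present in 44.6% of member promoters against 34.5% of all, CCGGAAG in 16.2% against 7.05%, GCATGCGC in 13.5% against 2.32%, AAGGTCA in 6.76% against 4.05%, and AAGATGGC in 0 members against 1.59%. The motifs do not overlap each other in the printed sequences. A match describes the letters and no more, and the promoters of Ndufa12 and Ndufa10 held none of these letters in this window.

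Complex III held both genes past the thresholds. Uqcr10 (chr11:4701973-4704342, minus strand, GENCODE M21, GRCm38) encodes a small subunit that sits beside the Rieske protein and cytochrome c1. Its level was 39.4, 33.9 and 34.6 CPM in β1-K794Q cultures A, B and C, and 15.7, 16.8 and 17.7 CPM in β1-WT cultures A, B and C. Every β1-K794Q culture was above every β1-WT culture, by a log2 fold change of 1.10 (SE 0.17, 95% interval 0.69 to 1.52, unadjusted p = 0.000536, adjusted p = 0.0955 in edgeR). Uqcr11 (chr10:80402997-80406830, minus strand), a small subunit of the same complex, was at 37.5, 33.7 and 37.4 CPM in β1-K794Q cells and at 18.2, 14.8 and 19.2 CPM in β1-WT cells. Its groups did not overlap either, with a log2 fold change of 1.06 (SE 0.18, 95% interval 0.61 to 1.5, unadjusted p = 0.00103, adjusted p = 0.104 in edgeR). Both genes stayed at an unadjusted p under 0.05 when any 1 culture was left out, Uqcr10 also stayed past a 2-fold change each time, and Uqcr11 did so 5 of 6 times, with 0.95 (log2) without β1-WT culture B. Of the transcript of Uqcr11, 38.4% lies in sequence nearly identical (at least 97%) to 1 other gene, so some of its reads could have been counted there or lost; Uqcr10 has no such copy.

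None of the other 7 complex III genes was called. The core proteins Uqcrc1 and Uqcrc2 were at 91.8 to 138 and 76.1 to 115 CPM in β1-WT cells, with log2 fold changes of -0.35 (SE 0.21, unadjusted p = 0.143 in edgeR) and -0.20 (SE 0.24, unadjusted p = 0.440 in edgeR). Of the redox-active subunits, the Rieske iron-sulfur protein Uqcrfs1 had a log2 fold change of -0.31 (SE 0.23) and cytochrome c1, Cyc1, one of -0.19 (SE 0.21), neither of which passed the test. Uqcrb, Uqcrh and Uqcrq, further small subunits, ranged from -0.08 to 0.08. Uqcrb is uncertain, as 62.8% of its transcript is near-identical to parts of 3 other genes. The median over the 9 complex III genes was -0.08. Cycs, the somatic cytochrome c, was at 26.9, 15.7 and 22 CPM in β1-K794Q cells and 18.5, 17.1 and 19.7 CPM in β1-WT cells, groups that overlapped (log2 fold change 0.22, SE 0.25). Of its transcript, 34.4% is near-identical to parts of 18 other genes.

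**Figure D2:**
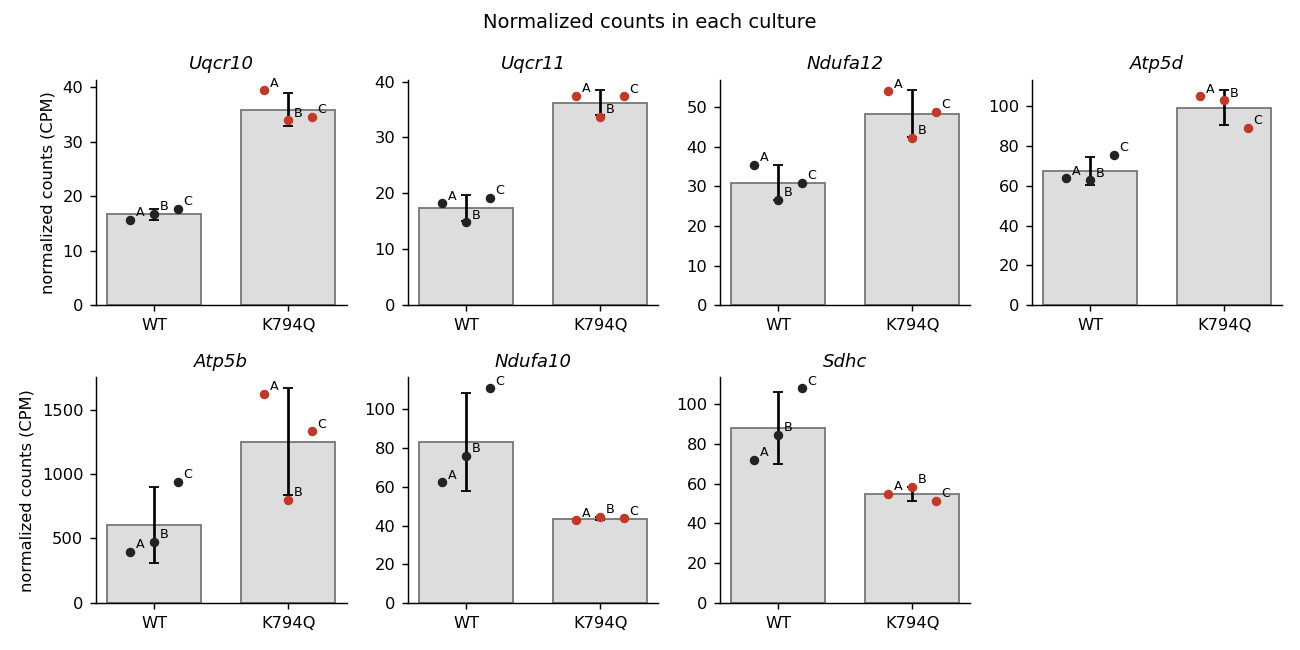
Normalized counts (CPM) of 7 genes in each culture (points, labelled A to C), with bars for the mean of 3 cultures and lines for the SD. Uqcr10 and Uqcr11 were about 2-fold higher in every β1-K794Q culture, Ndufa10 and Sdhc were lower in every one, and the groups overlapped for Atp5b alone.

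In complex I, 3 of 35 tested genes were at an unadjusted p of at most 0.05, beside 10.2% of all tested genes. The median log2 fold change of the 35 was 0.01. Ndufa10 (chr1:92439010-92473860, minus strand), an accessory subunit of the membrane arm, had the lowest log2 fold change of all members. It was at 42.6, 44.5 and 43.7 CPM in β1-K794Q cells and at 62.4, 76.1 and 111 CPM in β1-WT cells. The β1-K794Q cultures were nearly equal and all below the β1-WT cultures, of which C was the highest, and the log2 fold change was -0.93 (SE 0.24, unadjusted p = 0.00709, adjusted p = 0.228 in edgeR). Without any 1 culture it ran from -1.11 to -0.66. Ndufa12 (chr10:94198720-94221443, plus strand), an accessory subunit of the matrix arm, was higher, with 54.0, 42.3 and 48.8 CPM in β1-K794Q cells against 35.4, 26.6 and 30.9 CPM in β1-WT cells. Its groups did not overlap (log2 fold change 0.64, SE 0.19, unadjusted p = 0.0131, adjusted p = 0.292 in edgeR), and p was 0.0547 without β1-K794Q culture A and 0.0571 without β1-WT culture B. Part of its transcript (36.2%) is near-identical to 1 other gene.

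Among core subunits of the matrix part, which takes electrons from NADH to ubiquinone, the log2 fold change was -0.29 for Ndufs3 and 0.20 for Ndufs7, and neither was called. Ndufs3 is uncertain, as 75.7% of its transcript is near-identical to 1 other gene. Ndufv1, the flavin-binding subunit, was at 43.7, 43.6 and 50.0 CPM in β1-K794Q cells and at 44.5, 37.1 and 55.2 CPM in β1-WT cells, and its log2 fold change of 0.01 had a 95% interval of -0.47 to 0.48. Ndufs1, the largest core subunit, gave -0.18 with an interval of -0.70 to 0.34. For both, a 2-fold change lay outside the interval. The tested accessory subunits other than Ndufa10 and Ndufa12 lay between -0.35 (Ndufa9) and 0.39 (Ndufa3). Ndufs5, an accessory subunit that every complete complex I contains, had 0 counts in all 6 cultures. Of its transcript, 46.9% is near-identical to 1 other gene, and whether its reads were lost in counting was not tested.

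Complex II, which is also succinate dehydrogenase of the TCA cycle, has 4 subunits, and 1 of them was called, beside 10.2% of all tested genes. Sdhc (chr1:171127165-171150603, minus strand), a membrane anchor that binds haem and quinone, was at 55, 58.4 and 51.4 CPM in β1-K794Q cells and at 71.9, 84.6 and 108 CPM in β1-WT cells. All β1-K794Q cultures were below all β1-WT cultures, with a log2 fold change of -0.68 (SE 0.19, unadjusted p = 0.0115, adjusted p = 0.284 in edgeR), and the call held without any 1 culture (-0.81 to -0.50). None of its partners was called. Sdhd, the other membrane anchor, was at 54.5, 53.4 and 48.7 against 44.7, 46.5 and 62.9 CPM (log2 fold change 0.02, SE 0.19). Sdha, the flavoprotein that oxidizes succinate, gave 0.04 (SE 0.19) and Sdhb, the iron-sulfur subunit, -0.12 (SE 0.20). Whether Sdhc differed from its partners was not tested.

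In complex IV, 0 of 12 tested genes were at an unadjusted p of at most 0.05 in edgeR, beside 10.2% of all 11608 tested genes. In DESeq2, 0 of the 12 were at that p, beside 1338 of the 11608. Ndufa4 had the lowest log2 fold change of complex IV. It was at 18.6, 9.87 and 21.8 CPM in β1-K794Q cells and at 26.3, 24.8 and 32.9 CPM in β1-WT cells. The groups did not overlap, culture B of β1-K794Q being the lowest, and the log2 fold change was -0.74 (SE 0.33, 95% interval -1.53 to 0.05, unadjusted p = 0.0614, adjusted p = 0.525 in edgeR). Leaving out 1 culture moved this value. It was -0.47 without β1-K794Q culture B (unadjusted p = 0.0866 in edgeR), -0.60 without β1-WT culture C (unadjusted p = 0.153 in edgeR), and -0.98, past an unadjusted p of 0.05, without β1-K794Q culture C (unadjusted p = 0.0376 in edgeR). The remaining 11 genes lay between -0.16 and 0.21. Cox4i1, the most abundant complex IV transcript and a regulatory subunit, was at 132, 117 and 114 CPM in β1-K794Q cells and at 129, 125 and 150 CPM in β1-WT cells. These groups overlapped (log2 fold change -0.16, SE 0.16, 95% interval -0.54 to 0.23). Cox5a gave -0.02 (SE 0.25), and Cox6c, a small subunit in the membrane, the highest value, 0.21 (SE 0.20). Without β1-WT culture C, Cox5a was at 0.23 (SE 0.20).

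The isoforms of complex IV subunits that are known from muscle, testis or hypoxic cells were at or near 0 counts, whereas their widely expressed partners had at least 100 counts in every culture. Cox6a2 and Cox7a1, the isoforms of heart and skeletal muscle, reached at most 2 and 7 counts in any culture. Cox6b2, Cox7b2 and Cox8c, known from testis, reached at most 2, 0 and 0 counts. Cox4i2 and Ndufa4l2, known from lung and from hypoxic cells, reached at most 1 and 2 counts. Cox8b, a muscle isoform, was the exception, with 17, 5 and 4 counts in β1-K794Q cultures A, B and C and 0 in all 3 β1-WT cultures. Its mean of 0.825 CPM was at least 2.75-fold higher than the highest limit of 3 counts in a β1-WT culture (0.3 CPM). This rests largely on culture A: without it the mean was 0.419 CPM, at least 1.4-fold higher than that limit. Cox8b did not pass the filter on low counts, and Cox8a, its partner, had at least 450 counts in every culture. Of 8 striated muscle markers, 5 were at 0 in all cultures, and their summed level was 1.16 to 13.3 CPM in β1-K794Q and 0.175 to 15.3 CPM in β1-WT cultures. Their part in the Cox8b counts was not tested. Of 6 male germ cell markers, 4 were at 0 in all cultures.

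Complex V held the most abundant transcript of the chain. Atp5b (chr10:128083273-128090391, plus strand), the catalytic beta subunit that makes ATP, was at 1620, 800 and 1330 CPM in β1-K794Q cells and at 397, 474 and 940 CPM in β1-WT cells. Culture B of β1-K794Q lay below culture C of β1-WT, so the groups overlapped, and the log2 fold change of 1.05 (SE 0.44, 95% interval -0.01 to 2.12) missed the threshold at an unadjusted p of 0.0521 (adjusted p = 0.496, edgeR). Without β1-WT culture C it was 1.53 (unadjusted p = 0.00785 in edgeR), and without β1-K794Q culture B it was 1.29 (unadjusted p = 0.0329 in edgeR). Without any one of the other 4 cultures it was 0.82 to 1.0, with an unadjusted p between 0.107 and 0.161 in edgeR. Atp5b passed both thresholds in DESeq2 (unadjusted p = 0.0205), in edgeR's likelihood ratio test (unadjusted p = 0.0308) and in edgeR with at least 10 counts required in every culture (unadjusted p = 0.0497). Atp5d (chr10:80138632-80145818, plus strand), the delta subunit of the central stalk, was at 105, 103 and 89.1 CPM in β1-K794Q cells and at 63.8, 62.8 and 75.6 CPM in β1-WT cells. The groups did not overlap (log2 fold change 0.56, SE 0.16, unadjusted p = 0.0122, adjusted p = 0.287 in edgeR), and p lay between 0.0505 and 0.0596 without β1-K794Q culture A or either of β1-WT cultures A and B.

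Neither partner of Atp5b in the catalytic head was called. Atp5a1, the alpha subunit that alternates with the beta subunit in a ring, was at 332, 371 and 318 CPM in β1-K794Q cells and at 313, 343 and 511 CPM in β1-WT cells (log2 fold change -0.19, SE 0.25). Without β1-WT culture C, Atp5a1 had a log2 fold change of 0.06 (SE 0.17). Atp5c1, the gamma subunit that turns inside the ring, gave -0.29 (SE 0.16, unadjusted p = 0.110 in edgeR) with groups that did not overlap. The 3 genes for the same subunit c of the membrane rotor gave -0.38 (SE 0.30) for Atp5g1, 0.03 (SE 0.19) for Atp5g2 and 0.14 (SE 0.18) for Atp5g3, and none passed the test. In β1-WT cells Atp5g3 was the highest of them per kb of mRNA (104 CPM per kb, beside 29.7 for Atp5g2 and 11.8 for Atp5g1). Atp5g2, Atp5o and Atp5h are uncertain, as 88.2%, 76.7% and 71.1% of their transcripts are near-identical to other genes. Atp5l, a subunit of the membrane part, had 5 to 20 counts and was not tested. Of its transcript, 57.4% is near-identical to parts of 4 other genes.

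The summed level of the chain differed between cultures through Atp5b and, for culture C of β1-WT, also through the other genes. Summed over all 94 genes, the level was 5345, 4651 and 4831 CPM in β1-K794Q cultures A, B and C and 4126, 4150 and 5269 CPM in β1-WT cultures A, B and C. The groups overlapped through culture C of β1-WT. Without Atp5b, the sums were 3725, 3851 and 3497 CPM against 3728, 3676 and 4329 CPM, and culture C of β1-K794Q was then the lowest of all. Atp5b took 30.3%, 17.2% and 27.6% of the members' counts in β1-K794Q cells and 9.63%, 11.4% and 17.8% in β1-WT cells. Culture C was the highest of the β1-WT cultures for 45 of the 84 members (53.6%, beside 45.2% of all tested genes), and the lowest for 21.4% (44.4% of all genes).

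**Figure D3:**
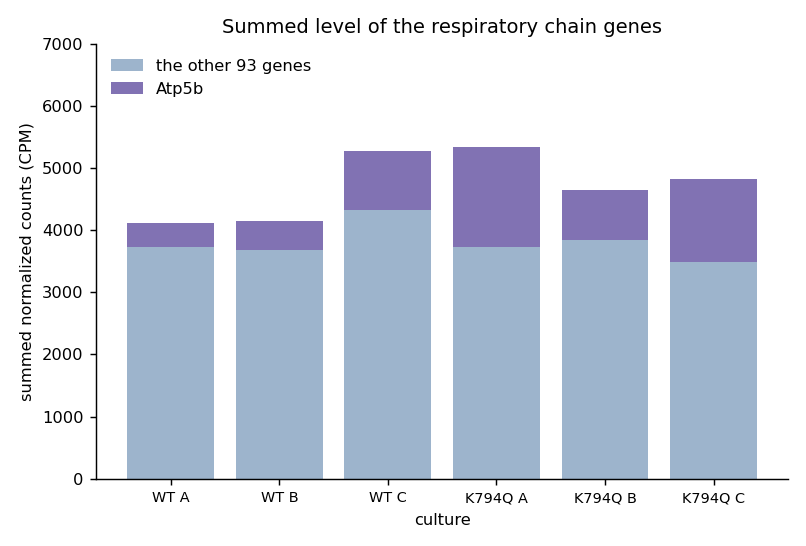
Summed normalized counts (CPM) of the 94 genes in each culture, with Atp5b stacked on the other 93. The part without Atp5b runs from 3497 to 4329 CPM, whereas Atp5b runs from 397 CPM in β1-WT culture A to 1620 CPM in β1-K794Q culture A.

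The 9 assembly and accessory factors had a median log2 fold change of -0.15, and 0 of them were at an unadjusted p of at most 0.05 in edgeR or in DESeq2. The counts over all 11608 tested genes were 1180 (10.2%) in edgeR and 1338 in DESeq2. Ndufaf7, a methyltransferase that helps to build complex I, was at 4.53, 8.78 and 6.45 CPM in β1-K794Q cells and at 8.22, 8.90 and 12 CPM in β1-WT cells, groups that overlapped (log2 fold change -0.56, SE 0.34). Ndufaf1, which helps to build the membrane arm, had the highest value (0.16, SE 0.20), and Ndufaf4, the most abundant of them, gave -0.07 (SE 0.19).

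Levels between genes were compared per kb of mRNA, with the median length of the annotated transcripts. Reads in sequence near-identical to other genes could have been lost or counted elsewhere. The levels of Cycs (34.4% of its transcript), Uqcr11 (38.4%) and Atp5g2 (88.2%), among others, are therefore uncertain. In β1-WT cells the median was 85.5 CPM per kb over the 12 tested complex IV genes, 67.8 over complex V, 49.6 over complex III, 48.4 over complex II and 31.3 over complex I, whereas the assembly factors had 6.59 and Cycs 5.90. In β1-K794Q cells the same order held, with 83.2, 67.1, 63.6, 45.3 and 29.9 CPM per kb, then 6.89 for Cycs and 6.66 for the assembly factors, which changed places. The genes of a complex spread more widely than the complexes did, for example in complex I from 2.43 CPM per kb for Ndufab1, the acyl carrier protein, to 93 for Ndufa8, an accessory subunit, in β1-WT cells. Uqcr10 and Uqcr11, which form part of the same complex, were at nearly the same level as each other in both groups (38.5 and 39.1 CPM per kb in β1-WT cells, 82.8 and 81.4 in β1-K794Q cells).

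**Figure D4:**
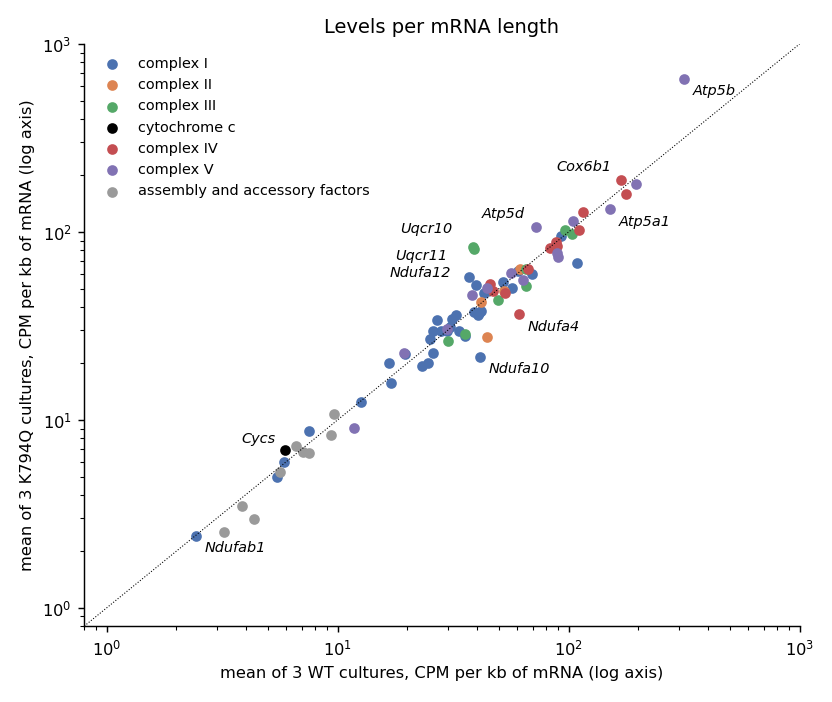
Level of the 84 tested genes per kb of mRNA in β1-WT cells (x axis) and β1-K794Q cells (y axis), means of 3 cultures on log axes, coloured by complex, with a dotted line where both groups are equal. Complex IV and V genes lie high and assembly factors low, and Atp5b, Uqcr10 and Uqcr11 stand above the line.

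The called genes were not spread evenly over the chromosomes. Of the 7 genes at an unadjusted p of at most 0.05, 3 lie on chromosome 10 (Uqcr11, Ndufa12, Atp5d), 3 on chromosome 1 (Ndufa10 and Sdhc among them) and 1 on chromosome 11 (Uqcr10). All 5 tested members of chromosome 10 were above 0, with a median log2 fold change of 0.64, and the median over its 549 tested genes was 0.55, with 36.1% at an unadjusted p of at most 0.05. The 6 members of chromosome 1 had a median of -0.43, beside -0.25 and 21% for its 648 tested genes. The 4 members of chromosome 11 had a median of -0.02, beside -0.06 and 11.4% for its 977 tested genes. Outside chromosomes 1, 10 and 11, 0 members were called. On those other chromosomes with members, 5.83% (chromosome 17) to 11.6% (chromosome X) of the tested genes were at that p.

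Each member was then set beside its 24 nearest tested genes, 12 on either side. For all 7 called members, the median log2 fold change of the neighbours had the same sign as the member's own. Around Ndufa12 23 of 24 neighbours were higher in β1-K794Q cells (median 0.66), around Atp5d 22 (0.46), around Uqcr11 21 (0.35) and around Uqcr10 15 (0.70). Around Sdhc 23 of 24 neighbours were lower (median -0.65), and around Ndufa10 19 were lower (-0.65). Atp5d, Ndufs7 and Uqcr11 lie close together on chromosome 10, so they share neighbours and are not separate observations. Around Atp5b 23 of 24 neighbours were higher (median 1.37), more in β1-K794Q cultures A and C (1.70 and 1.51 above the β1-WT mean, log2) than in culture B (0.50). The level of Atp5b in these cultures had the same order, whereas its high value in β1-WT culture C had no counterpart in the neighbours there (-0.10).

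The neighbours' median was past 0.3 in either direction for 11 members, a limit chosen after the values were seen: the 7 called members with Atp5b, Ndufs7, Atp5g3 and Ndufaf7. Of these 11, 7 were at an unadjusted p of at most 0.05, and of the other 73, 0 were. Among all tested genes, the shares were 35.5% and 7.84%. Across the 84 members, the log2 fold change and the neighbours' median had a Pearson r of 0.72 and a Spearman rho of 0.35, and without the 7 called members 0.51 and 0.16 (n = 77); genes are not independent replicates, and neighbouring members share points, so these values are descriptions. Over all 11527 tested genes with a position both were 0.22. Not every difference went with the neighbours: Ndufa4 (-0.74) had 12 neighbours higher and 12 lower.

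**Figure D5:**
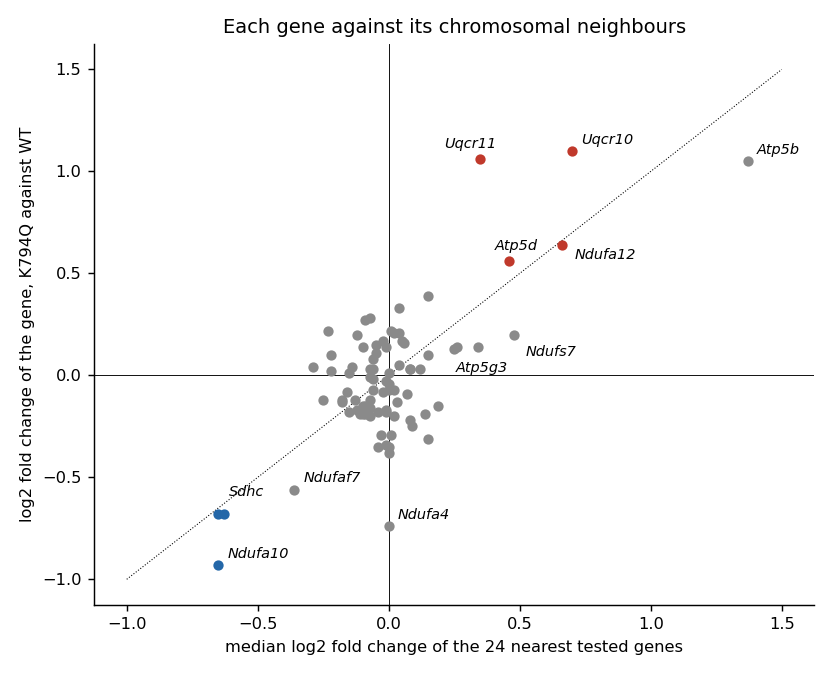
Log2 fold change of each of the 84 tested genes (y axis) against the median of its 24 nearest tested genes (x axis); red and blue mark genes at an unadjusted p of at most 0.05, and the dotted line marks equal values. The coloured genes all lie in the quadrants where gene and neighbours have the same sign, Uqcr11 and Uqcr10 above the line and Ndufa12, Atp5d and Sdhc close to it.

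When the level of these neighbours in each culture was taken into the fit as an offset, an alternative added after the values were seen, 2 members remained at an unadjusted p of at most 0.05 (2.38%), beside 8.32% of all tested genes. They were Uqcr11, with a log2 fold change of 0.67 relative to its neighbours (SE 0.18, unadjusted p = 0.00785, adjusted p = 0.321 in edgeR), and Uqcr10, with 0.49 (SE 0.17, unadjusted p = 0.0245, adjusted p = 0.506 in edgeR). Neither was then 2-fold. Relative to their neighbours, Ndufa10 was at -0.28 (SE 0.21), Sdhc at -0.08 (SE 0.26), Atp5d at 0.13 (SE 0.16), Ndufa12 at -0.03 (SE 0.18) and Atp5b at -0.28 (SE 0.40). What set the level of these stretches was not tested.

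The other genes of mitochondrial respiration were described by 7 lists written by function, of which 6 had genes in the table. Of their 193 tested genes, 5 passed both thresholds (2.59%, beside 5.19% of all tested genes). At an unadjusted p of at most 0.05 there were 17 (8.81%, beside 10.2%). Among the 38 tested assembly factors outside the rule, 0 were higher and 3 lower at that p, beside 6.08% and 4.08% of all tested genes. Their median log2 fold change was -0.02. Cox20, which helps to mature a mitochondrially encoded subunit of complex IV, passed both thresholds, with 5.39, 8.39 and 5.50 CPM in β1-K794Q cells against 14.4, 13.4 and 10.9 CPM in β1-WT cells (log2 fold change -1.0, SE 0.29, unadjusted p = 0.0115, adjusted p = 0.284 in edgeR). It was under 2-fold, at -0.89 to -0.98, without β1-K794Q culture A or C or β1-WT culture A or B. Of 22 biogenesis regulators 1 was higher and 1 lower, the latter being Tfb2m, a transcription factor of mitochondrial DNA, with 7.99, 8.49 and 9.89 CPM against 16.1, 17.7 and 21.4 CPM (-1.07, SE 0.22, unadjusted p = 0.0027, adjusted p = 0.156 in edgeR), and -0.93 without β1-WT culture C. Both genes lie on chromosome 1, with neighbours' medians of -0.50 and -0.59.

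At an unadjusted p of at most 0.05, 6.08% of all tested genes were higher and 4.08% lower. In the list of the TCA cycle and pyruvate dehydrogenase (21 genes, median -0.17), 1 was higher and 1 lower at that p. The higher was Cs, citrate synthase, with 695, 364 and 586 CPM in β1-K794Q cells and 155, 174 and 289 CPM in β1-WT cells (log2 fold change 1.41, SE 0.36, unadjusted p = 0.00695, adjusted p = 0.228 in edgeR). Its log2 fold change ran from 1.2 to 1.75 when 1 culture was left out. Among the β1-K794Q cultures A was the highest and B the lowest, as for Atp5b, which lies on the same part of chromosome 10. Among 22 carriers and genes of ubiquinone synthesis, 1 was higher: Coq10a, which binds ubiquinone, with 78.7, 38.9 and 54.7 CPM against 27.0, 26.0 and 10.4 CPM (1.44, SE 0.44, unadjusted p = 0.0154, adjusted p = 0.306 in edgeR). Without β1-K794Q culture A, Coq10a was at 1.15 and missed the threshold (unadjusted p = 0.0515 in edgeR). All 24 neighbours of both genes were higher, and relative to them Cs was at 0.09 (SE 0.28) and Coq10a at 0.08 (SE 0.39). Of the 14 tested hypoxia-linked genes, 1 was higher and 1 lower. Epas1, the hypoxia-inducible factor HIF-2α of endothelial cells, was at 400, 563 and 1010 CPM against 184, 201 and 448 CPM, groups that overlapped (1.25, SE 0.50, unadjusted p = 0.0444, adjusted p = 0.468 in edgeR), and the call was lost in 4 of 6 fits that left out 1 culture. Its neighbours on chromosome 17 had a median of -0.09. The 76 genes of the mitochondrial ribosome gave 2 higher and 5 lower genes, where 6.08% of all tested genes were higher and 4.08% lower. Their median was -0.14, beside -0.02 for all tested genes, with 52 of them below 0.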

How the data were processed

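Total RNA of 3 β1-WT and 3 β1-K794Q cultures was sequenced after ribosomal depletion. The submitters' processing notes name bcl2fastq 2.20.0, STAR 2.7.4a, HTSeq 0.9.1, edgeR 3.38.4 and mm10, with no roles; the annotation and strand setting are not given in the sources used here. The authors deposited raw counts per mouse gene symbol.

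edgeR 4.0.16 (R 4.3.3) was run on these counts: filterByExpr (11608 of 23420 symbols), TMM, and the two-sided quasi-likelihood F-test over all genes with Benjamini-Hochberg adjustment. The SE is the size of the log2 fold change divided by the square root of F, and 95% intervals use the moderated t distribution. Levels are CPM scaled by TMM. Positions, mRNA lengths and overlaps came from GENCODE M21 (GRCm38), near-identical copies from blastn 2.17.0, and promoters from RefSeq. Without known strand, reads of Ndufaf2, Ndufb6 and Ndufa13 cannot be told apart from those of genes overlapping 65.6%, 39.0% and 30.0% of their exons on the opposite strand. In simulated counts, genes drawn from all 11608 tested genes were changed by known folds. Of these, 47.9% of 48 genes raised and 51.3% of 39 genes lowered 2-fold passed both thresholds. These shares are not specific to the members, whose spread within groups was narrower (median SD 0.20 against 0.35, log2).

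The genes named are those at an unadjusted p of at most 0.05, the highest, lowest and most abundant of each complex, core subunits, isoform pairs, and listed pathway genes past both thresholds; other genes were named after their values were seen. Some of these genes are counted but not reported here by name. The members, lists, motifs and neighbour comparison were chosen with earlier results of these data known.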

Additional observations from a re-analysis of the deposited data

How the results depend on the processing

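The number of members at an unadjusted p of at most 0.05 (7) was 7 or 8 without a filter, with at least 10 counts in every culture, with RLE, with DESeq2 1.42.0 and with the likelihood ratio test, and 4 to 8 when 1 culture was left out. The member added was Atp5b with DESeq2, the likelihood ratio test and at least 10 counts in every culture, and Cox8b without a filter, and each also passed the fold threshold there, for 3 members past both. Leaving out β1-K794Q culture A gave 4, as did leaving out β1-WT culture B. With the neighbours' level in the offset, added after the values were seen, it was 2, and no member (0) and 2 pathway genes passed both thresholds. At an adjusted p of at most 0.05, edgeR's quasi-likelihood test gave 0 members, DESeq2 3 and the likelihood ratio test 2. The members past both thresholds (2) ranged from 1 to 3 and the pathway genes (5) from 3 to 6 when 1 culture was left out. Over all genes the count past both thresholds (603) was 916 without a filter and 501 to 992 when 1 culture was left out, the highest being 992 without β1-WT culture C and 942 without β1-K794Q culture B. The median log2 fold change of complex I (0.01) ranged from -0.06 to 0.01 in these fits. Among 481 values of 37 named genes under the alternatives, 451 kept their sign, if called, and their side of the threshold, 22 lost the threshold and 7 gained it. Ndufa12 changed sign, to -0.03 with the neighbours' level in the offset; its value there is relative to its neighbours.

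The culture letters do not pair the cultures by the labels, and the deviations of same-letter cultures from their group means correlated at 0.095, 0.055 and 0.095. With the letter as a replicate block, 8 members were at an unadjusted p of at most 0.05, 2 members and 571 genes passed both thresholds, and Ndufa4 was added (-0.80, unadjusted p = 0.0339 in edgeR).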
